A study of Mus musculus with 14 samples.

Results

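The ion channel genes described here are those whose symbol begins with Kcn, Scn followed by a number, Cacn, or Hcn followed by a number. They were chosen by name alone, with no measured value, and 79 of the 10543 genes named in the tables met the rule. They hold 93 of the 14881 H3K4me3 regions with values, and where a gene had several regions, the one with the highest mean signal stood for it. The name voltage-gated fits most but not all of them. By textbook role 10 are two-pore potassium channels, 4 are inward rectifiers and 7 belong to potassium channels opened by calcium or sodium or are their auxiliary subunits. Among 9 auxiliary calcium channel genes, Cacng4 and Cacng8 encode proteins best known as partners of AMPA-type glutamate receptors. RefSeq lists 138 protein-coding mouse genes whose symbols meet the rule, and 59 of these had no row with values used here, among them Kcnd2, Scn2a, Scn3a, Kcnj10, Kcnn2, Hcn4 and Cacng2. An absent row says only that the gene was not analysed here.

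H3K4me3 was measured by ChIP-seq, which sequences DNA bound to histone H3 trimethylated at lysine 4, in the cerebral cortex. All mice were of strain C57BL/6J and 3 months old. The groups were postnatal-only nicotine (4 libraries), postnatal-only saccharin (4 libraries), pre- and postnatal nicotine (3 libraries) and pre- and postnatal saccharin (3 libraries). Saccharin, given as a sweetened solution without nicotine, was the control of each exposure, and each exposure had its own table and its own controls. The treatment text was the same for every sample and describes solutions given to pregnant mice from conception and withdrawn at weaning of the offspring, so the postnatal-only course is known from the group names alone. Nothing in the labels says that the libraries of a group came from separate animals, so every p-value measures the spread between samples, which may be technical. Sex and genotype beyond the strain were not stated.

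H3K4me3 marks the promoters of genes that are active or ready to be transcribed, and it is laid down by enzymes that favour DNA rich in CG dinucleotides. Voltage-gated sodium channels carry the upstroke of the action potential, potassium channels repolarize the membrane and set its resting level, calcium channels couple voltage to transmitter release and gene expression, and HCN channels carry the pacemaker current. Each channel is built from pore-forming subunits, and auxiliary subunits change their gating and their delivery to the membrane. Nicotine acts on acetylcholine-gated receptors, which are not among these genes.

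The values are a signal in adjusted read counts per region. The 8 postnatal libraries summed to between 2004918 and 2489860, and the 6 pre- and postnatal ones to between 1445810 and 2372855. Within each postnatal group, libraries 1 and 2, and libraries 3 and 4, differed by 0.985 to 1.08 times counting variance, against 1.94 to 2.60 times for other pairs. That ratio takes the adjusted signal for counts although no depth is known, so it is only approximate, and the labels do not say that the pairs are repeat libraries. Each such pair differed by no more than about the sampling noise and entered as a single averaged sample, so each postnatal group had 2 samples. Between 8.30% and 49.7% of a library's signal lay in 15 very strong regions, none of them a channel gene, and outside these the channel regions took 0.583% to 0.645%. Marker lists were searched for genes with a region, which shows only that a gene was measured, not how abundant a cell type was. 7 of 10 neuronal markers had a region (Nefm, Nefl, Slc17a7, Snap25, Camk2a, Stmn2 and Gad2), as did 3 of 8 astrocyte, 7 of 9 oligodendrocyte, 1 of 6 microglial, 4 of 7 endothelial and mural, and 2 of 7 heart and muscle markers. None of these markers was called between nicotine and saccharin in either exposure, and neither was any region (0% in both). Camk2a alone of the markers had an unadjusted p under 0.05 in limma, higher after pre- and postnatal nicotine (log2 0.42 ± 0.20). The share of all regions with such a p was 3.59%. In bulk cortex, fewer cells of a type and less of the mark per cell cannot be told apart.

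Annotated promoters are shown for the 4 channel genes with the strongest and the 4 with the weakest signal per kb among those with 1 promoter entry. They are RefSeq promoters of build GRCm38.p6, from 250 bases before to 50 after the annotated start, written 5′ to 3′ on the gene's strand, and the capitals mark every CG dinucleotide. The 4 strong ones are Kcnc1 (chr7:46396218-46396517, plus strand), Kcnma1 (chr14:24004156-24004455, minus strand), Kcnj4 (chr15:79505192-79505491, minus strand) and Hcn2 (chr10:79716384-79716683, plus strand). The 4 weak ones are Scn9a (chr2:66634913-66635212, minus strand), Kcnk15 (chr2:163853500-163853799, plus strand), Kcnmb2 (chr3:31902453-31902752, plus strand) and Cacng8 (chr7:3393792-3394091, plus strand). The measured regions are on the older build mm9, so whether a region covers the promoter shown was not checked.
Kcnc1: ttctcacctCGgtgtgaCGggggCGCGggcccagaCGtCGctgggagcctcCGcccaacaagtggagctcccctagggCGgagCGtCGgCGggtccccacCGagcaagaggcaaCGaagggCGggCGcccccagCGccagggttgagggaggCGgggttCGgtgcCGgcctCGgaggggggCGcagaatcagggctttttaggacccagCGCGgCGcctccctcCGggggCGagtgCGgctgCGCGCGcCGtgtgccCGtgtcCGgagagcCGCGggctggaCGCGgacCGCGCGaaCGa
Kcnma1: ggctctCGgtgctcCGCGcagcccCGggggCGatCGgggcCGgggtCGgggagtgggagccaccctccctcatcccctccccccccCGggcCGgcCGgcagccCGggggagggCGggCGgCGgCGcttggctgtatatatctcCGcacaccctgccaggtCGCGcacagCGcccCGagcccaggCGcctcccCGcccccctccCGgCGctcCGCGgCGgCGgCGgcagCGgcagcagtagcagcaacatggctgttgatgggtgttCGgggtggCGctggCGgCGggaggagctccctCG
Kcnj4: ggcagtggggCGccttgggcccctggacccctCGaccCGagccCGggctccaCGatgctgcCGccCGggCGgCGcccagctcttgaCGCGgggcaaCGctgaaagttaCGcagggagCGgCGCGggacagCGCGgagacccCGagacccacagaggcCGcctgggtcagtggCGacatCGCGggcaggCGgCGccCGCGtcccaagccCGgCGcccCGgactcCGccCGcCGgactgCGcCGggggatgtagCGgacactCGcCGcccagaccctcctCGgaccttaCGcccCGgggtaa
Hcn2: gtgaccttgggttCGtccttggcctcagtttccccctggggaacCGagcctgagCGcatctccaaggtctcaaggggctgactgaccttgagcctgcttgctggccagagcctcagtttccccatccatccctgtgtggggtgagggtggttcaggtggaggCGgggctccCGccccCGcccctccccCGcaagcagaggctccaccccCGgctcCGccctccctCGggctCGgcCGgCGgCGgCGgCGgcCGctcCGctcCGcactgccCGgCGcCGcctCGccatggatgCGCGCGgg
Scn9a: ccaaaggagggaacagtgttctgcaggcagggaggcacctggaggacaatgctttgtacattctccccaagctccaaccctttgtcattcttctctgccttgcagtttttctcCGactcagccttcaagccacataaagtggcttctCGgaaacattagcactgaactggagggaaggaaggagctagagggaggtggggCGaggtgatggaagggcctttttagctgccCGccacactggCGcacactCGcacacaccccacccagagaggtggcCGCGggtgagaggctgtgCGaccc
Kcnk15: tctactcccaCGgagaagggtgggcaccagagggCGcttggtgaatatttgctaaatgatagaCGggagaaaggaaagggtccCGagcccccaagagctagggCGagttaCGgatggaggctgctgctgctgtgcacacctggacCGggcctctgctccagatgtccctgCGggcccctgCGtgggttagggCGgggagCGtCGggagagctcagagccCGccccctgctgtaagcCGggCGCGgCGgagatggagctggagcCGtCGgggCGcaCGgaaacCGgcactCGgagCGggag
Kcnmb2: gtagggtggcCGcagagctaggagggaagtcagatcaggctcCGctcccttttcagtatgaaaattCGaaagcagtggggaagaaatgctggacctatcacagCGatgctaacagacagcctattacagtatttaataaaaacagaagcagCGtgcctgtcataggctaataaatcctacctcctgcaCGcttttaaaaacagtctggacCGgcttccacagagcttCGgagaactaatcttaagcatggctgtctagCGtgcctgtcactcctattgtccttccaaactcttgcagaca
Cacng8: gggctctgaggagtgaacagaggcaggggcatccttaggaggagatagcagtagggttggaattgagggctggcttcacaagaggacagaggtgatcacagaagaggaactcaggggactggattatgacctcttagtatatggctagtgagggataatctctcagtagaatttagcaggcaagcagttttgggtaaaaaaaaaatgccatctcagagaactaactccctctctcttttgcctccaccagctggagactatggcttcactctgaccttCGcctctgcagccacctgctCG
The strong promoters held 41 (Kcnc1), 36 (Kcnma1), 41 (Kcnj4) and 26 (Hcn2) CG dinucleotides. The weak ones held 9 (Scn9a), 24 (Kcnk15), 9 (Kcnmb2) and 2 (Cacng8). The median was 7 over all 32851 RefSeq promoters (quartiles 3 and 20) and 21 over the 9621 promoters of genes named in the tables. Kcnk15, with weak signal, had nearly as many CG dinucleotides as Hcn2, with strong signal. The motif GGGCGG, the core of the box bound by Sp1, was searched on both strands. It occurred 3 times in the Kcnc1 promoter, 2 times in Kcnma1, 4 times in Kcnj4 and 3 times in Hcn2, and 0, 2, 0 and 0 times in Scn9a, Kcnk15, Kcnmb2 and Cacng8. At least 1 match was found in 35.7% of the 32851 promoters and in 64.8% of those of named genes. A promoter entry was found for 56 of 79 channel genes (70.9%), too few for a check of sequence over the whole set, so that check is void.

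Channel genes carried the mark in wide but moderately dense regions. Levels between genes are compared per kb of region, in saccharin samples. The median channel gene had a signal of 52.4 per kb in the postnatal table and 34.6 in the pre- and postnatal one, against 61.1 and 37.0 for all named genes. 36 and 37 of the 79 lay above those medians. Only 1 channel gene in each table (Hcn2 in the postnatal one, Kcnc1 in the other) was in the top 10% of named genes, while 11 and 8 were in the bottom 10%. The regions themselves were 779 to 3585 bp wide, with a median of 2034 bp against 1657 bp for all named genes. 52 of 79 exceeded that median, 20 were in the widest 10% and 7 in the narrowest. The order of the 79 genes was nearly the same in both tables (Spearman's rho 0.962 over 79 genes, 0.965 over all named genes). This is a description across genes, which are not independent replicates, in tables adjusted separately but built on the same regions.

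Among sodium channel genes the spread was wide. Scn8a, the main pore subunit at the axon's spike initiation site, had 90.0 ± 5.29 per kb in postnatal saccharin samples (SD, n = 2) and 45.1 ± 2.01 in pre- and postnatal ones (SD, n = 3). Scn1a, the pore subunit prominent in fast-spiking interneurons, had 20.2 ± 9.70 and 21.2 ± 4.11 in the same order, in a region of 2854 bp that is among the wider ones. The lowest level was at Scn9a, a channel best known from sensory neurons (13.8 ± 0.667 and 12.6 ± 2.42).

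Pore subunits of calcium channels formed the family with the highest median, 89.8 per kb in postnatal and 47.8 in pre- and postnatal saccharin samples, and 7 and 6 of the 8 lay above the median of named genes. Cacna1a, the P/Q-type subunit that drives transmitter release, led among the regions standing for a gene. It had 111 ± 16.2 (SD, n = 2) and 74.0 ± 16.1 (SD, n = 3). A second Cacna1c region, not standing for its gene, had 110.2 and 81.9. Cacna1b, the N-type subunit at the same terminals, had 99.3 ± 8.94 and 58.4 ± 4.10, and the L-type genes Cacna1d and Cacna1c had 94.1 ± 11.9 and 82.9 ± 3.77 in the postnatal table. The T-type genes, whose channels open at low voltage, ran in the order Cacna1h (95.4 ± 16.7), Cacna1i (85.5 ± 6.06) and Cacna1g (61.3 ± 4.02) in postnatal saccharin samples. Cacna1h and Cacna1i lay within their spread of each other. Cacna1e, the R-type subunit, stood apart with 24.2 ± 6.04 and 20.1 ± 5.64, over a wide region of 3064 bp.

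Auxiliary calcium channel genes covered almost the whole range. Cacnb4, a cytoplasmic beta subunit, had 117 ± 5.37 per kb and 68.3 ± 5.89, and Cacna2d1, the extracellular subunit bound by gabapentin, had 107 ± 0.907 and 64.5 ± 1.26. Cacng8 was near the bottom with 10.2 ± 11.6 and 9.21 ± 1.68 in the narrowest of the 79 regions. Its postnatal SD exceeded its mean. Of the 3 HCN genes, Hcn2 had the highest postnatal level of all 79 genes (144 ± 25.8), with Hcn3 at 70.3 ± 10.3.

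Voltage-gated potassium channel pores of the Shaker-related families ranged from 136.6 ± 24.2 per kb at Kcnc1 to 20.2 ± 6.25 at Kcna7 in postnatal saccharin samples. Kcnc1 encodes a fast delayed rectifier of fast-spiking neurons, and the related Kcnc2 had 26.0 ± 2.04. Kcnd3, an A-type channel, had 117 ± 5.86. The axonal channels Kcna2 and Kcna1 had 71.1 ± 5.63 and 46.8 ± 7.59, and Kcna7 is known mainly from muscle. Among the Kv7 genes, which carry the M-current that damps repetitive firing, Kcnq5 (98.8 ± 8.51) and Kcnq3 (71.6 ± 6.99) lay well above Kcnq1 (25.9 ± 4.80), the cardiac member. The EAG-related genes, slowly or atypically gated potassium channels, were lower, from 56.0 ± 6.86 at Kcnh1 and 50.4 ± 0.581 at Kcnh2, the ERG channel of cardiac repolarization, to 26.3 ± 7.94 at Kcnh7. None of the 4 auxiliary genes of these channels (Kcnip1, Kcnip2, Kcnip3 and Kcnab3) reached the median of named genes in either table, and their medians were 34.2 and 20.7 per kb. The 7 genes of electrically silent subunits, which form channels only with other pores, had medians of 43.1 and 34.5, led by Kcns2.

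The calcium- or sodium-activated, inward rectifier and two-pore potassium channel genes spanned a wide range of levels. Kcnma1, the large-conductance channel opened by calcium and voltage together, had 141.7 ± 0.380 per kb in postnatal and 80.6 ± 6.48 in pre- and postnatal saccharin samples, whereas its auxiliary gene Kcnmb2 had 7.90 ± 4.81 and 12.2 ± 2.29. Kcnt1, opened by sodium, had 78.6 ± 2.88 in postnatal saccharin samples, and the small-conductance genes Kcnn3 and Kcnn1 had 37.9 ± 4.26 and 34.6 ± 6.63. Of the inward rectifiers, Kcnj4 had 132 ± 9.19, against 43.4 ± 17.9 at Kcnj6, 19.9 ± 0.841 at Kcnj8, known from pericytes and smooth muscle, and 18.0 ± 3.97 at Kcnj9. The two-pore channels, which carry background potassium current, ran from Kcnk12 (117 ± 10.6), Kcnk2 (109 ± 12.8) and Kcnk3 (97.6 ± 7.11) to Kcnk15 (16.7 ± 2.14).

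**Figure D1:**
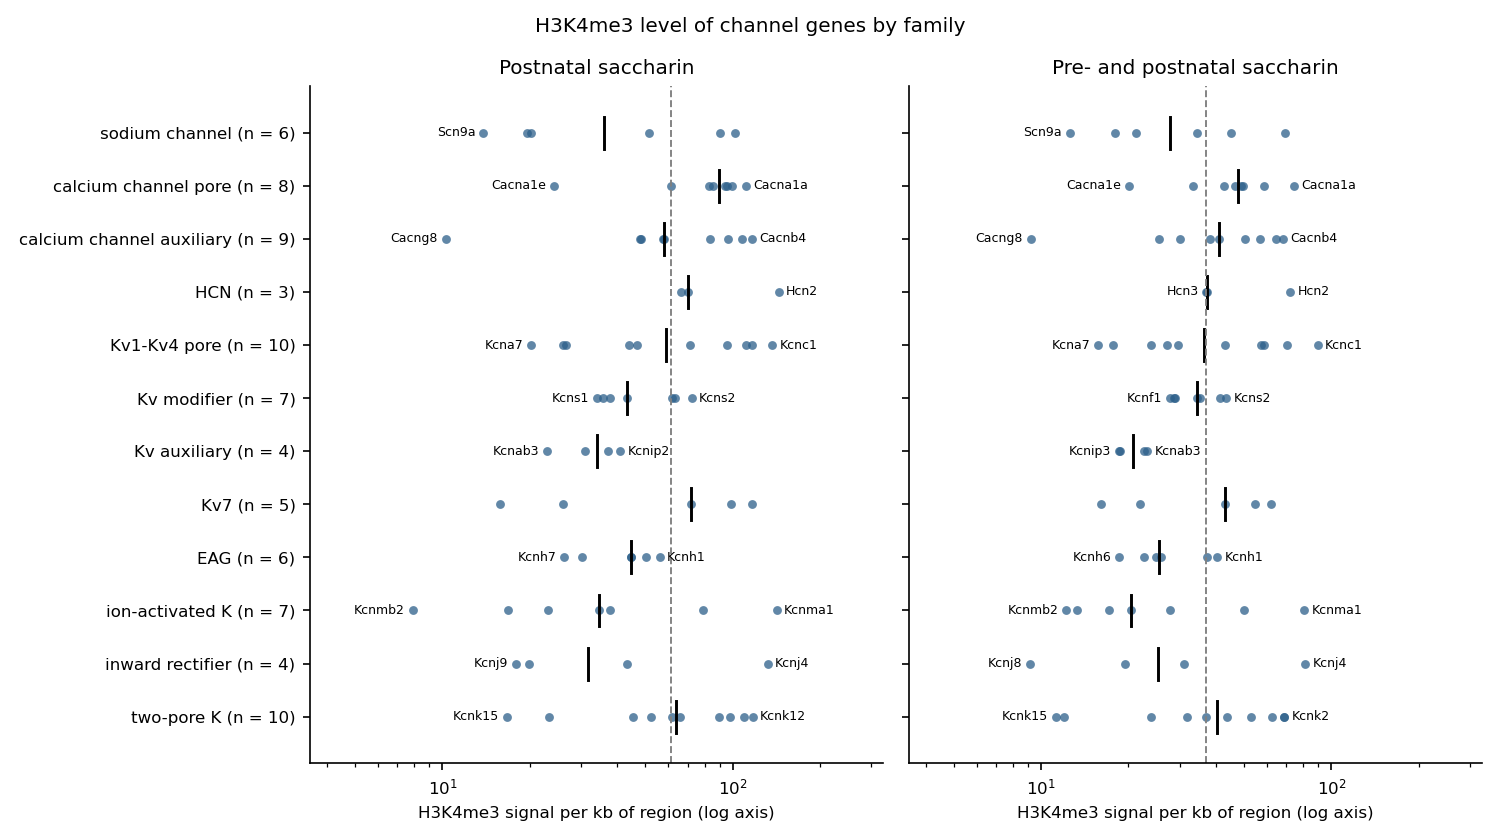
H3K4me3 signal per kb of region (log axis) of the 79 channel genes in 12 families, in postnatal (left) and pre- and postnatal (right) saccharin samples. Each point is a gene's group mean, black ticks are family medians, and the dashed line is the median of all named genes (61.1 and 37.0). Some of the genes at the ends of a family are named.

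11 channel genes had more than 1 region, 8 of them 2 and 3 of them 3. At most of these genes 1 region held most of the summed signal. The region standing for a gene was chosen by its signal in these same libraries, so its lead is partly set by that rule. At Hcn2 the strongest region was 10.5-fold denser per kb than the second in postnatal saccharin samples and 6.27-fold denser in pre- and postnatal ones. The ratio was 9.69 and 3.10 at Cacnb4, 7.93 and 2.96 at Scn8a, and 5.23 and 4.18 at Kcnk3. At Cacna1c the region with the higher summed signal was not the denser one. Its wide region of 3585 bp (chromosome 6, 119055942 to 119059527, mm9) had 82.9 and 49.5 per kb, and the narrower one, 1460 bp wide and 67.9 kb away (119124860 to 119126320), had 110.2 and 81.9.

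Distances between regions were set beside those between annotated starts of the same gene. The Cacnb4 regions are 118.0 kb apart on mm9, and RefSeq promoters of Cacnb4 are 117.5 and 117.3 kb apart on GRCm38.p6. For Cacna1d the distances were 126.0 kb between regions and 137.7 kb between promoters, and for Cacnb2 135.3 and 219.8 kb. The Cacna1c regions are 67.9 kb apart, against 87.9, 350.5 and 438.4 kb between its promoters. At Scn8a the tables give the regions different transcripts (NM_001077499 for the strong and NM_011323 for the weak one), 112.5 kb apart, whereas the RefSeq promoters are 65.6 kb apart. The 3 regions at Kcnq1 were all weak, with 25.9, 22.8 and 11.9 per kb in postnatal saccharin samples and 21.9, 18.2 and 25.1 in pre- and postnatal ones, where the third was the densest. RefSeq places the noncoding Kcnq1ot1 within Kcnq1, so signal of the 2 genes cannot be told apart there.

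**Figure D2:**
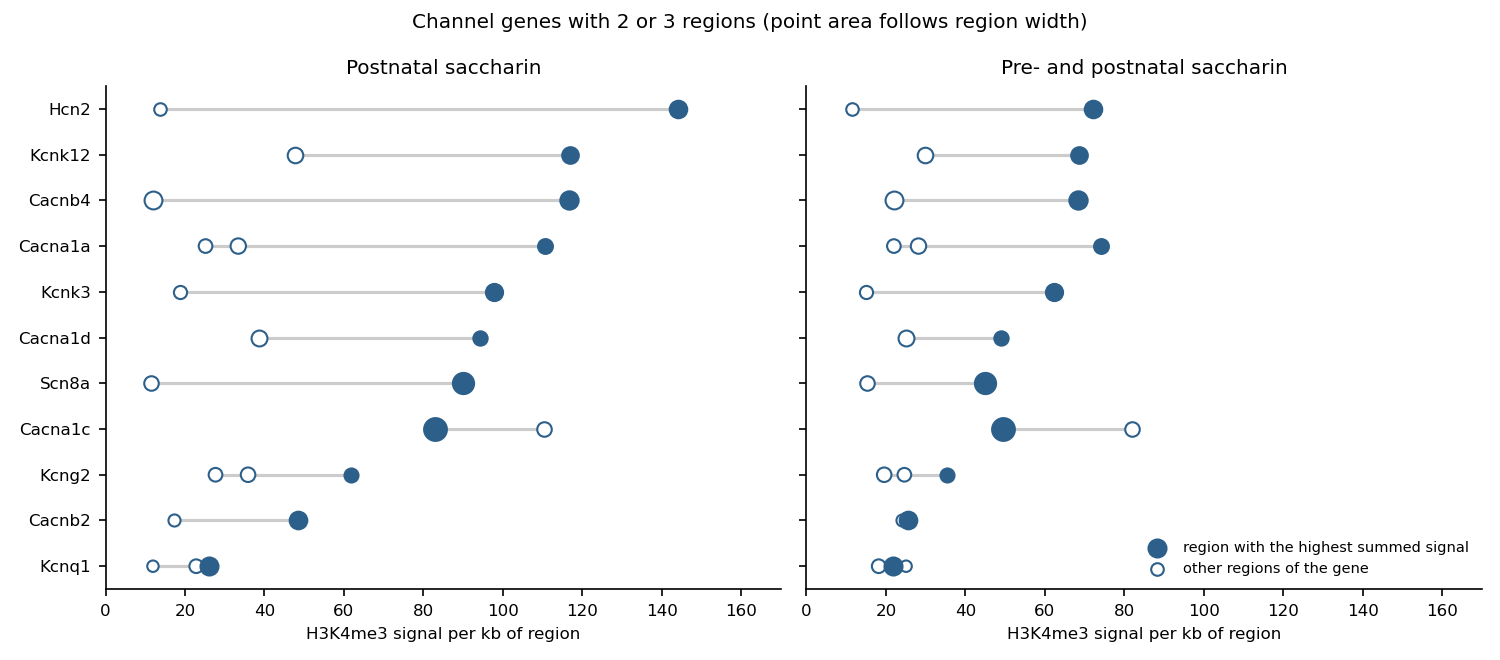
H3K4me3 signal per kb of region at the 11 channel genes with 2 or 3 regions, in postnatal (left) and pre- and postnatal (right) saccharin samples. Filled points are the region with the highest summed signal of a gene, open points its other regions, and the point area follows the region's width. At Hcn2, Cacnb4, Scn8a and Kcnk3 the open points lie far below the filled one, and an open point lies above the filled one at Cacna1c in both panels and at Kcnq1 in the right one.

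Nicotine given after birth left no channel gene called. In limma on log2(signal + 1), 0 of 79 had a Benjamini-Hochberg adjusted p under 0.05, and the background over all 14873 regions tested was 0%. At an unadjusted p under 0.05 there was 1 channel gene, Cacna1i, higher with nicotine and 1.27% of the 79, against 1.89% of all regions (0.961% higher, 0.928% lower). At 23 channel genes the 2 groups did not overlap (10 with nicotine higher, 13 lower), against 29.1% of all regions (15% higher, 14% lower), so that the channel genes were near the background of a design with 2 samples a group. 39 genes (49.4%) lay higher and 40 lower, against 49.1% of all regions higher, and their median log2 difference of -0.0046 was close to the -0.0036 of all regions. The median channel gene had an unadjusted 95% interval of ± 0.33 on the log2 scale, so the precision at the median gene did not reach differences smaller than that.

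Cacna1i encodes a low-voltage-activated T-type pore subunit found largely in neurons of brain. Its region (chromosome 15, 80117227 to 80119282, mm9) held 226.9 and 206.7 in the postnatal nicotine samples, against 184.6 and 167.0 in the saccharin samples. Both nicotine samples lay above both saccharin samples. The log2 difference was 0.30 ± 0.12 (SE), with an unadjusted p of 0.020 and an adjusted p of 1.00 in limma, so it did not pass, and it stayed between 0.23 and 0.37 when any sample was left out.

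Also on the higher side, Kcns1, an electrically silent subunit, averaged 72.4 ± 4.10 in nicotine and 57.0 ± 9.99 in saccharin samples (SD, n = 2 each; log2 0.35 ± 0.21). The groups did not overlap. Kcna7 (0.51 ± 0.33), Kcng3 (0.19 ± 0.12) and Kcns2 (0.16 ± 0.16) followed in the order of p, with unadjusted p of 0.139, 0.152 and 0.333 in limma, and at Kcns2 the groups overlapped and the difference was no larger than its SE.

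On the lower side the two-pore channel genes Kcnk15 and Kcnk1 came first. Kcnk1 (chromosome 8, 128518651 to 128522191) held 142.0 and 175.8 in nicotine samples, against 183.7 and 187.4 in saccharin samples (log2 -0.23 ± 0.13). Kcnk15 held 5.94 and 10.2, against 14.4 and 17.3 (-0.93 ± 0.50), the most negative value of the 79 but at a region with very little signal. Neither gene's groups overlapped. Cacna2d2 (-0.17 ± 0.12), Cacna1c (-0.14 ± 0.11), Kcnn3 (-0.34 ± 0.26) and Kcnh6 (-0.46 ± 0.37) followed, and of these 4 only Kcnh6 had overlapping groups. Leaving out 1 sample changed the sign at Kcns2 (-0.08 to 0.39). The lower differences, and those of Kcna7 and Kcns1, kept their sign but not their size when 1 sample was left out. Kcnk1 then lay between -0.38 and -0.08, Kcnk15 between -1.28 and -0.58, Kcnh6 between -0.87 and -0.05, Kcnn3 between -0.55 and -0.13, Kcna7 between 0.20 and 0.82 and Kcns1 between 0.17 and 0.53.

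Pre- and postnatal exposure gave the same count of calls. Again 0 of 79 channel genes passed in limma, as did 0% of the 14879 regions tested, and the smallest adjusted p of a channel gene was 0.987. Cacna1i alone had an unadjusted p under 0.05, again on the higher side, against 3.59% of all regions (1.72% higher, 1.87% lower). The groups were free of overlap at 4 channel genes, 2 higher and 2 lower with nicotine, against 8.95% of all regions (4.49% higher, 4.46% lower). The split was again 39 higher and 40 lower (50.5% of all regions lay higher), with a median log2 difference of -0.0023 against 0.0027 over all regions, and the median 95% interval was ± 0.48.

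Cacna1i held 133.7, 112.5 and 105.0 in the pre- and postnatal nicotine samples, against 112.2, 82.0 and 68.4 in the saccharin samples. The highest saccharin sample lay within the nicotine range, so the groups overlapped. The log2 difference was 0.44 ± 0.20 (SE), with an unadjusted p of 0.038 and an adjusted p of 0.987 in limma, and leaving out single samples moved it between 0.28 and 0.63. The gene lay on the higher side in both exposures, which have separate saccharin controls, and passed in neither.

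The 4 genes without overlap were Kcnd3, Kcnn1, Kcna7 and Kcnab3. Kcnd3 (chromosome 3, 105254249 to 105256861) held 241.7, 189.5 and 213.0 in nicotine samples, against 185.2, 182.9 and 181.5 in saccharin samples, a log2 difference of 0.22 ± 0.15. Its nicotine samples had also lain above its saccharin samples after postnatal exposure (322.7 and 318.6, against 315.7 and 294.0; log2 0.07 ± 0.11). Kcnn1, a small-conductance calcium-activated channel, averaged 34.7 ± 8.37 in nicotine and 21.7 ± 4.63 in saccharin samples (SD, n = 3 each; log2 0.65 ± 0.34). In the postnatal exposure its sign was the opposite one (-0.30 ± 0.28). The averaged samples did not overlap there either (35.0 and 35.0 in nicotine, against 37.6 and 49.4 in saccharin samples). Single libraries did overlap, at 29.6 to 40.3 in nicotine and 34.1 to 60.3 in saccharin. Kcna7 also stood on opposite sides, at -0.52 ± 0.43 after pre- and postnatal and 0.51 ± 0.33 after postnatal exposure. Kcnab3, a cytoplasmic beta subunit, had 20.8, 13.1 and 25.5 in nicotine samples, against 27.1, 29.3 and 33.5 in saccharin samples (-0.62 ± 0.36).

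**Figure D3:**
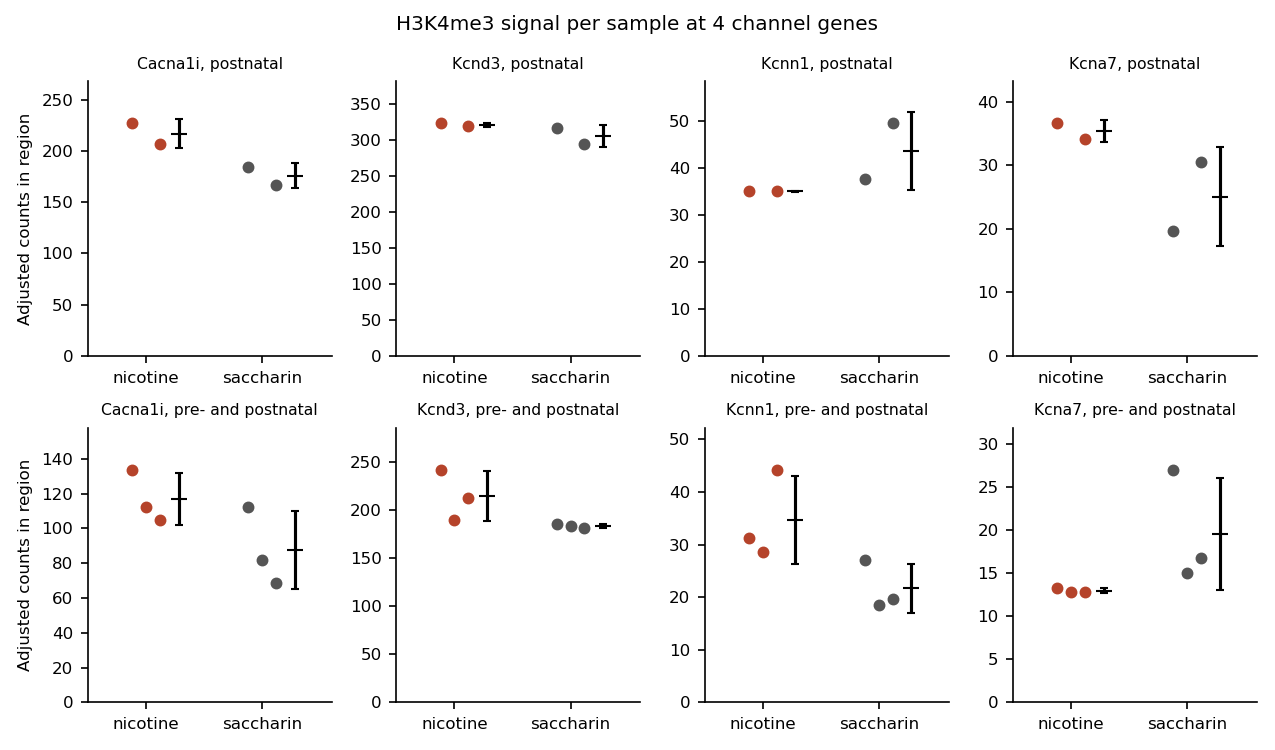
H3K4me3 signal (adjusted counts in the region) in each sample at 4 channel genes, after postnatal (top row, averaged pairs, n = 2 each) and pre- and postnatal exposure (bottom row, n = 3 each), nicotine left of saccharin. Points are samples and bars show the mean and SD. At Cacna1i nicotine lay higher in both exposures, with overlap in the lower panel, and at Kcnn1 and Kcna7 the 2 exposures stood on opposite sides.

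Other genes with the lowest p after pre- and postnatal exposure were spread over the families. On the higher side were Kcnh7, an ERG-type channel (log2 0.53 ± 0.28), Kcnq1 (0.47 ± 0.27), Kcnk10 (0.35 ± 0.20) and Cacna1c (0.28 ± 0.16). Kcnh7 held 39.6, 78.7 and 70.7 in nicotine samples, against 48.8, 42.9 and 33.9 in saccharin samples, and the groups overlapped. On the lower side were Kcns2 (-0.45 ± 0.26), Kcnf1 (-0.38 ± 0.23), Kcns3 (-0.34 ± 0.23), Kcnk4 (-0.51 ± 0.33) and Kcnip3 (-0.74 ± 0.49), and all 5 overlapped. Leaving out 1 library moved Kcnip3 between -1.24 and -0.09, Kcnf1 between -0.65 and -0.18, Kcns2 between -0.62 and -0.14, and Kcnk4 between -0.74 and -0.27, with Kcnh7 between 0.35 and 0.83 and Kcnq1 between 0.28 and 0.73. Kcns2, Kcns3 and Kcnf1 are all electrically silent subunits. Of the 7 genes of that kind, 5 lay lower and 2 higher with nicotine (median -0.34), and 6 lay lower under quantile and under cyclic loess normalization. None passed the test, and after postnatal exposure 4 of the 7 lay higher (median 0.07). The 4 inward rectifier genes all lay higher after pre- and postnatal exposure (median 0.16), but 3 of them under either other scaling, and 1 of 4 lay higher after postnatal exposure.

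**Figure D4:**
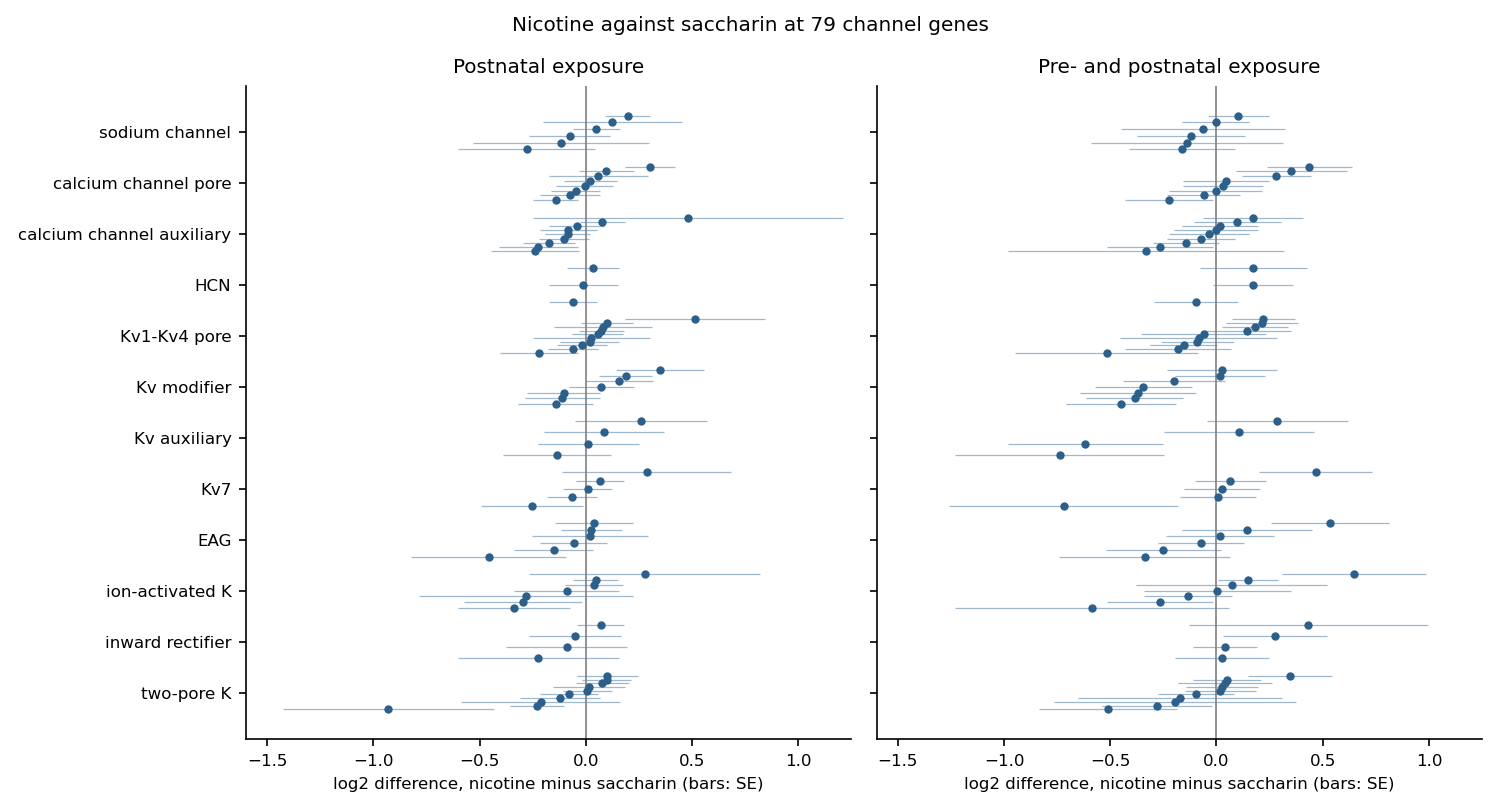
Log2 difference of H3K4me3 signal, nicotine minus saccharin, at the 79 channel genes by family after postnatal (left) and pre- and postnatal (right) exposure. Points are genes and bars are SE from limma. Points lie on both sides of 0, and no family lies wholly on 1 side in both exposures.

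The additional regions were tested in the same fits. The weak Cacnb4 region (chromosome 2, 52412290 to 52414489) held 22.7, 25.3 and 29.5 in pre- and postnatal nicotine samples, against 44.8, 58.1 and 42.3 in saccharin samples. Every nicotine sample lay below every saccharin sample, as at 4.46% of all regions. This region was picked from 14 additional regions after its values were seen. The log2 difference was -0.88 ± 0.29, with an unadjusted p of 0.0068 and an adjusted p of 0.987 in limma, so it did not pass. At the strong Cacnb4 region the difference was -0.14 ± 0.16, and at the weak region after postnatal exposure it was 0.11 ± 0.45. The Cacna1c regions stood on opposite sides in each exposure. The wide region had -0.14 ± 0.11 after postnatal and 0.28 ± 0.16 after pre- and postnatal exposure. The dense one had 0.24 ± 0.13 and -0.29 ± 0.23. At Kcnq1 the region standing for the gene had -0.25 ± 0.24 after postnatal and 0.47 ± 0.27 after pre- and postnatal exposure. Its second region, nearly as dense, had the opposite signs (0.25 ± 0.32 and -0.36 ± 0.39). The third had 0.46 ± 0.64 and 0.43 ± 0.46.

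The 2 exposures were set against each other through the difference of their log2 differences. 0 of 79 channel genes and 0% of 14871 regions had an adjusted p under 0.05 in this z test on the limma fits. At an unadjusted p under 0.05 there were 5 channel genes, 6.33% of the 79, against 3.65% of all regions. Pre- and postnatal minus postnatal, these were Cacna1c (0.42 ± 0.19), Kcnn1 (0.94 ± 0.44), Kcns1 (-0.72 ± 0.34), Kcnq1 (0.72 ± 0.36) and Kcns2 (-0.61 ± 0.30). 41 of 79 genes had the same sign in both exposures, as did 50.2% of all regions.

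The postnatal samples were also split by a trait of their own signal, and this split crosses treatment. The 15 strongest regions took a high share of the signal in nicotine 1 and 2 (25.2%) and saccharin 3 and 4 (18.7%), and a low one in nicotine 3 and 4 (10.04%) and saccharin 1 and 2 (8.47%). With treatment as a covariate, 5 of 79 channel genes were called between high and low samples at an adjusted p under 0.05, 4 higher and 1 lower, against 5.92% of all regions (4.80% higher, 1.12% lower), so the channel genes were near the background. Only 1 residual degree of freedom was left, and the variance came from limma's trend over all regions.

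Scn1a had the lowest p of the 79. It held 59.8 (nicotine) and 77.2 (saccharin) in the samples with a high share, against 33.2 (nicotine) and 38.1 (saccharin) in those with a low share, with no overlap. The log2 difference was 0.92 ± 0.20 (SE), with an adjusted p of 0.000416 in limma. In the pre- and postnatal table Scn1a was lowest (39.7) in nicotine 1, the library with the lowest share (19.1%), and lay between 51.7 and 73.8 in the others. Cacna1e held 96.9 and 87.3 in high samples, against 59.8 and 61.1 in low ones (0.60 ± 0.16), and Kcnj6 91.8 and 124.3, against 86.0 and 68.2 (0.47 ± 0.15). Kcnmb2 also lay higher (1.16 ± 0.36), and Cacnb2 lower (-0.47 ± 0.14; 78.9 and 76.9, against 90.7 and 130.0). Kcnmb2 was no longer called under quantile and under cyclic loess normalization, where its difference was 0.76 and 0.75 (adjusted p 0.235 and 0.297 in limma). Cacnb2 missed the threshold there with little change in its difference, -0.46 and -0.44 (adjusted p 0.0707 and 0.0612 in limma). Kcnh6 was called under both scalings, at -0.96 and -0.93, against -0.70 ± 0.26 on the values as deposited. In the pre- and postnatal libraries these genes did not follow one order of the share. Kcnmb2 was also lowest in nicotine 1 (9.31), but Cacna1e was lowest in saccharin 3 (42.2; share 33.1%) and Kcnj6 in saccharin 1 (56.3; share 39.9%). Cacnb2 was lowest in nicotine 3 (34.7), the library with the highest share (49.7%), and next lowest in nicotine 1 (47.4). The weak regions of Cacnb4 (1.20 ± 0.27) and Kcnq1 (1.26 ± 0.39) were called too, the second not under those scalings. What lies behind the split was not tested.

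**Figure D5:**
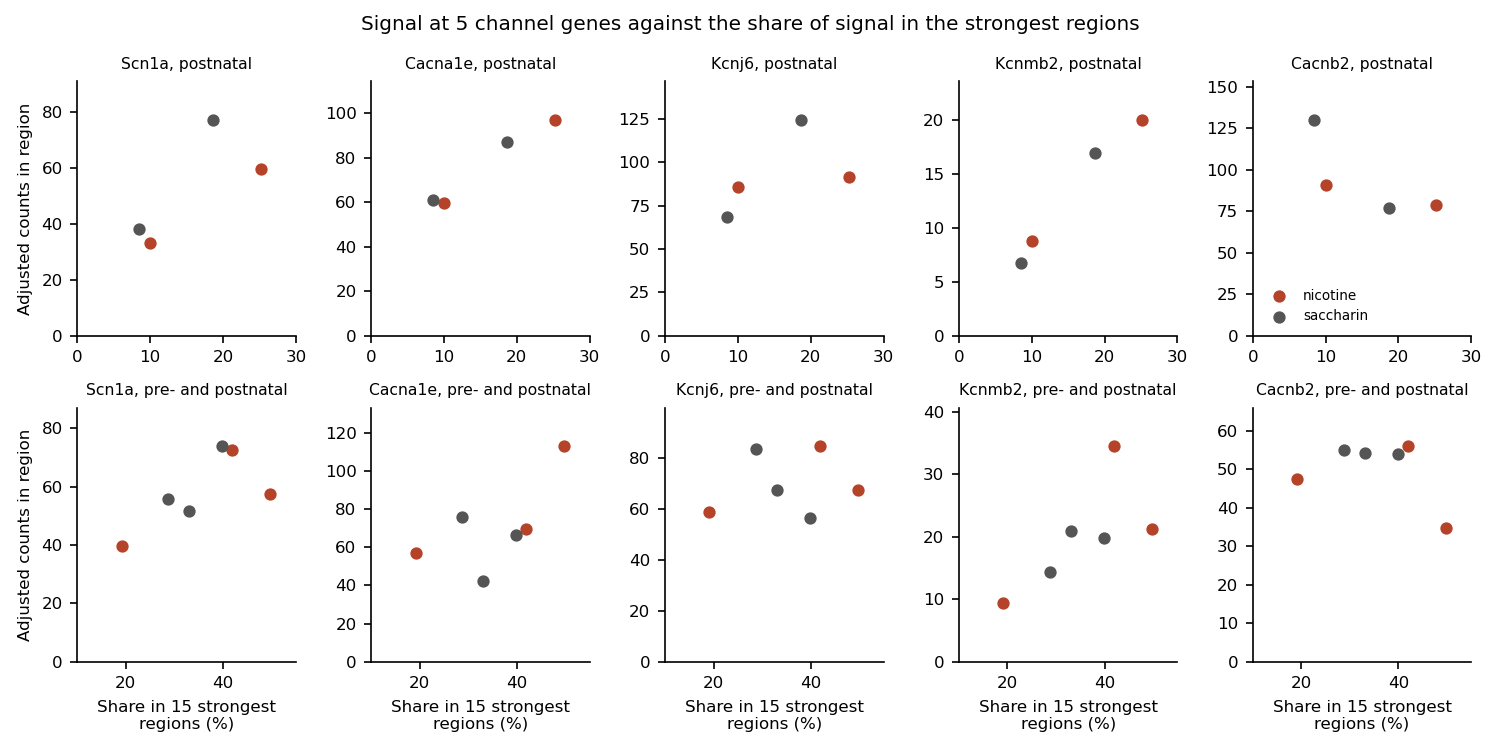
H3K4me3 signal (adjusted counts in the region) of the 5 channel genes called between postnatal samples with a high and a low share of signal in the 15 strongest regions, plotted against that share (%), after postnatal (top row) and pre- and postnatal exposure (bottom row). Each point is a sample, nicotine in red and saccharin in grey. In the top row Scn1a, Cacna1e, Kcnj6 and Kcnmb2 lie higher and Cacnb2 lower in the samples of high share.

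Genes that bind, anchor or accompany these channels but do not meet the rule were read from the same fits. Of 55 such genes 39 had a region, and 0 were called in limma in either exposure, as was 0% of all named genes. After postnatal exposure 0 had an unadjusted p under 0.05, against 2.05% of named genes, and 19 lay higher and 20 lower, against 49.8% of named genes higher (median log2 -0.01). After pre- and postnatal exposure 1 had such a p, against 3.23% of named genes, and 26 lay higher and 13 lower, against 52.4% higher (median log2 0.09, and 0.01 for all named genes). That gene was Calm3, one of the genes of calmodulin, the calcium sensor bound to several of these channels. It averaged 98.2 in nicotine and 66.1 in saccharin samples, a log2 difference of 0.56 ± 0.19, against 0.10 ± 0.15 after postnatal exposure. Ank3, which anchors sodium and Kv7 channels at the axon's initial segment, had 0.49 ± 0.29 after pre- and postnatal and -0.12 ± 0.26 after postnatal exposure. Neither passed.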

How the data were processed

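H3K4me3 was measured in 14 libraries. The authors deposited 1 table per exposure, each adjusted on its own, and the values are a signal, adjusted read counts that are neither whole nor negative. edgeR and build mm9 are named per the submitters' processing notes. Aligner, peak caller, their versions and raw depth: not given in the sources used here. Of 19203 rows, 4322 had empty values and were left out, 24 of them with a channel gene's symbol. The planned count test needs whole counts, so limma 3.58.1 with trend (R 4.3.3) was fitted to log2(signal + 1), per exposure, over regions with at least 1 in as many samples as the smaller group, two-sided, with Benjamini-Hochberg adjustment over all regions and a threshold of 0.05. The fits were tested on simulated data. Postnatal libraries 1 and 2, and 3 and 4, were averaged within a group. With no known depth, intervals cannot be given for single libraries.

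The members and lists were chosen with earlier results of these data known. The naming rule took 50 genes, some of which are not reported here: the 6 higher and 6 lower with the lowest p per exposure, the 10 highest and 5 lowest levels per kb, fixed textbook genes (24 of 33 measured) and genes whose regions differ most. Genes outside these sets, and the region pairs discussed, were named after their values were seen. The 12 families were grouped by textbook role after the files were seen. Alternatives covered pseudocounts, filters, scaling, blocks, left-out samples, unaveraged libraries and regions summed per gene. Figures were drawn with matplotlib 3.10.9.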

Additional observations from a re-analysis of the deposited data

How the results depend on the processing

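In limma, 0 channel genes were called between nicotine and saccharin in either exposure under every alternative run. Over all regions the postnatal count of 0 became 1 with the replicate block, 9 with the share class as a term (which is also the crossed pairing) and 0 to 31 when a sample was left out (7 without nicotine 1 and 2, 31 without nicotine 3 and 4, each leaving a lone sample assumed to vary like the other group). The pre- and postnatal count became 0 to 17 (17 without nicotine 1). The replicate numbers did not pair the samples: same-numbered samples deviated with r = -0.465 after postnatal exposure, and with -0.106 and -0.0982 after pre- and postnatal exposure, and they share only a number. Leaving out 1 sample changed the sign of 45 of 79 channel genes after postnatal and 43 of 79 after pre- and postnatal exposure. The share over all regions was not counted, so this cannot be read as a trait of channel genes. Among the genes and regions followed here for their difference, those that changed sign were Cacna1c after postnatal exposure with regions summed per gene (0.00109), and, over left-out samples, Kcns2 (-0.0782 to 0.393), Scn1a (-0.779 to 0.223, with 0.138 without nicotine 3 and 4) and the weak Cacnb4 region (-0.598 to 0.817, with -0.379 without nicotine 1 and 2) after postnatal exposure, and Scn1a (-0.318 to 0.111, with 0.0308 without saccharin 1) and the dense Cacna1c region (-0.573 to 0.0323) after pre- and postnatal exposure. The cause was not tested. Over 510 comparisons of these genes and regions with an alternative, 493 kept direction and side of the threshold, 9 changed sign, 6 lost a call and 2 gained one (Kcnh6 between share classes). The count of 493 says little about robustness. In the main fits no nicotine difference came near the threshold. After postnatal exposure the filters, the replicate block and the share-class term also leave the log2 value unchanged by design. With 2 or 3 samples a group and unknown depth, the 95% interval of the median channel gene was ± 0.33 and ± 0.48 (log2).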
